A study of Drosophila melanogaster with 12 samples.

Results

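The temporal identity factors hb, Kr, nub, pdm2 and cas and the switching factor svp were followed in neural progenitors of Drosophila melanogaster embryos with and without prospero. These 6 genes were chosen by name, and every probe that the platform annotation gives to one of them was used, which came to 7 probes of 14569 and 6 genes of 11979. The cells were neuroblasts and the ganglion mother cells (GMCs) that bud from them, taken from the ventral nerve cord of stage 11 embryos grown at 25 degrees C. Each of 12 two-channel arrays carried the amplified cDNA of 50 to 100 such cells against a common reference that pooled about 30 w1118 embryos, used whole, at stages 10 to 12. The 6 arrays labelled wildtype came from pros17/TM3-KrGFP animals, which carry 1 mutant copy of prospero over a GFP-marked balancer of the third chromosome, and the 6 mutant arrays came from pros17/pros17 animals. In both groups replicates 1 to 3 had the cells in Cy3 and replicates 4 to 6 had them in Cy5.

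Embryonic neuroblasts express transcription factors in a fixed order, and the factor present at a division marks the birth order of the daughter. Hunchback (hb, a zinc finger protein) comes before Kruppel (Kr, also a zinc finger protein), then the paired POU domain proteins Nubbin (nub) and Pdm2 (pdm2), then Castor (cas, a zinc finger protein), and Grainyhead (grh) follows. Seven-up (svp), an orphan nuclear receptor, ends the Hunchback window, and Prospero, a homeodomain protein inherited by the GMC, is known to help switch hb off there.

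Values are log2 ratios, read as cells over reference, a direction that is likely but not stated in the labels, so that 0 means an equal signal and 1 a signal higher by a factor of 2 in the cells. A value of exactly 0 was read as no ratio, and one larger than 11 in size as signal from 1 channel only. Both were treated as missing, which left 8421 to 10030 ratios per array. A gene was tested when it had at least 4 ratios in each group. Differences are mutant minus wildtype, adjusted for dye, with p-values of limma adjusted over all 8165 tested rows and called below 0.05. Whether the replicates stem from different embryos is not stated in the labels, and the p-values then measure the spread between samples that may be partly technical. The number of arrays limits the precision.

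The prospero transcript itself separated the groups. It stood between 0.88 and 3.29 on the wildtype arrays and between -3.95 and -2.13 on the mutant arrays, a difference of -5.16 (SE 0.36, limma adjusted p = 5.68e-05). The 5 neuroblast markers dpn, ase, wor, mira and insc had a median ratio above 0 on every array. That median ran from 0.17 to 2.32 in wildtype and from 2.11 to 2.76 in the mutant. In wildtype it was 1.53 to 2.32 with the cells in Cy3 and 0.17 to 0.44 with the cells in Cy5. The single markers differed: in wildtype dpn, ase and wor averaged 1.97, 1.22 and 1.90, but mira and insc averaged -0.74 and -0.53. The median of 6 neuronal markers went the other way between orientations in wildtype, at 0.20 to 0.86 in Cy3 and 2.02 to 2.97 in Cy5, and ran from -2.28 to 0.21 in the mutant. Among them elav averaged 2.43 in wildtype and 2.58 in the mutant (limma adjusted p = 0.840). By contrast nSyb, ChAT and VAChT were called lower in the mutant, and brp (-2.47, limma adjusted p = 0.0894) did not pass. Of the 5 neuroblast markers, 3 were called higher: dpn (2.06), mira (2.04) and ase (1.49), with limma adjusted p from 0.0158 to 0.0450. The other neuroblast markers, wor (0.66) and insc (1.93), did not pass. Of 3 tested glial markers, repo (-2.05, adjusted p = 0.0237) was called lower, and gcm and gcm2 did not pass. Over all rows 1.58% were called higher and 3.37% lower. Wildtype arrays of opposite orientation correlated at 0.54 to 0.76 over rows with all values, against 0.77 to 0.87 in the same orientation. The wildtype arrays of the 2 orientations therefore stood apart from each other, and results are given for each orientation where they differ. Mutant arrays correlated at 0.81 to 0.90 in opposite orientations and at 0.86 to 0.89 in the same. Their neuroblast median was 2.11 to 2.71 in Cy3 and 2.15 to 2.76 in Cy5, and their neuronal median -0.35 to 0.21 and -2.28 to -0.18. Dye orientation and sample set (replicates 1 to 3 or 4 to 6) cannot be told apart. Neuronal markers elav, nSyb, brp, ChAT, VAChT and futsch were measured on at least 1 array. The muscle markers Mef2, tin, how and Mhc had no probe annotated to them alone, so they could not be examined.

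None of the 5 genes that could be tested passed the threshold in the mutant. In limma over all rows 0 of 5 were called, against a background of 4.95% of rows called in either direction. At an unadjusted p under 0.05 it was 1 of 5, cas, against 25.9% of all rows, and in the exact permutation test within each dye orientation it was 1 of 6, again cas, against 22.4% of the tested rows; the hb ratios allow no p below 0.111 there. The early factor hb had too few ratios for the test. Of the tested genes, cas, svp and pdm2 had differences above 0, and Kr and nub below 0, where the median of all tested rows was -0.13. In bulk samples of this kind, fewer cells expressing a gene and less of its RNA per cell cannot be told apart.

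**Figure D1:**
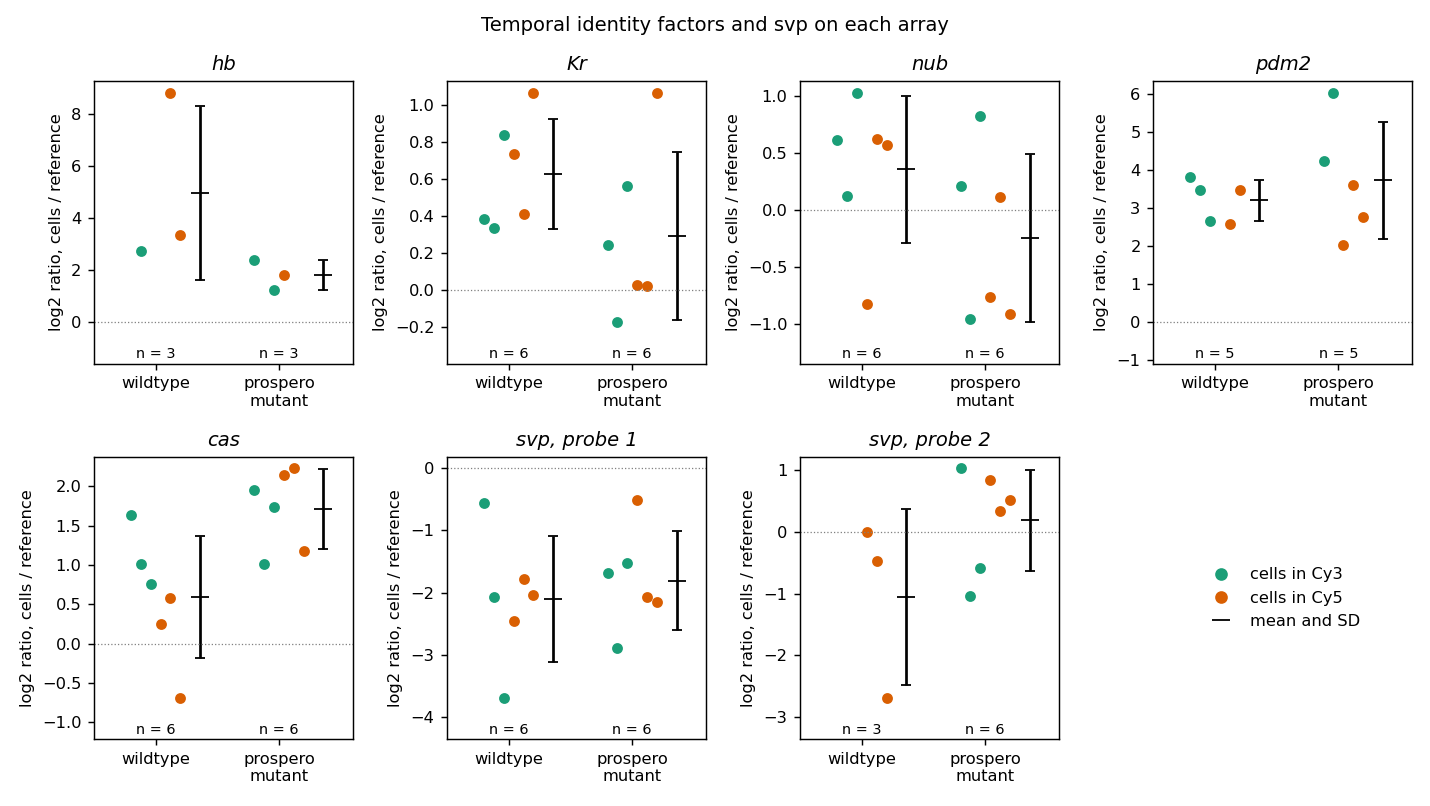
Log2 ratio of cells over reference (y axis) for each probe of the 6 genes on every array with a ratio, by group (x axis). Points are single arrays, coloured by the dye of the cells, and the black bar gives the mean and SD. The cas points of the mutant lie between 1.01 and 2.23 and those of wildtype between -0.69 and 1.63, pdm2 is above 0 throughout, and the second svp probe has no wildtype ratio with the cells in Cy3.

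The earliest factor, hb, gave a ratio on 6 of the 12 arrays, and all 6 were above the reference. In wildtype it stood at 2.75 on replicate 2, 8.83 on replicate 5 and 3.34 on replicate 6. In the mutant it stood at 2.37 on replicate 1, 1.23 on replicate 3 and 1.79 on replicate 4. Every other array held an exact 0 for hb. The 3 wildtype ratios were all above the 3 mutant ratios, with 1 wildtype array far above the other two. Of 126 rows with the same number of ratios, 19.8% had groups that did not overlap. The means were 4.97 ± 3.35 (SD, n = 3) and 1.80 ± 0.57 (SD, n = 3), a difference of -3.17. Without wildtype replicate 5 the means differed by -1.24. A two-sided exact permutation test within dye orientations gave p = 0.444, where 9 splits allow no p below 0.111. When rows with at least 2 ratios in each group were admitted, the limma difference was -2.62 (SE 1.67, adjusted p = 0.407).

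Kr, the successor of hb, was close to the whole-embryo reference in both groups. In wildtype replicates 1 to 6 it stood at 0.38, 0.34, 0.84, 0.74, 0.41 and 1.07. In mutant replicates 1 to 6 it stood at 0.25, -0.17, 0.56, 0.03, 0.02 and 1.07. It was above the reference on 11 of 12 arrays, and the groups overlapped over most of their range. The means were 0.63 ± 0.30 and 0.29 ± 0.45 (SD, n = 6 each), with a difference of -0.34 (SE 0.24, 95% interval -0.86 to 0.19, limma adjusted p = 0.408). The exact permutation test gave p = 0.17. The difference was -0.31 in Cy3 and -0.37 in Cy5, and it was -0.14 (adjusted p = 0.759) after each array was centred on its median. On the linear scale the 95% interval ran from 0.550 to 1.14 times the wildtype ratio.

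The POU domain genes nub and pdm2, paralogues that lie near each other on chromosome arm 2L, had different ratios to the reference. The pdm2 transcript had the higher ratios of the pair, and how many other genes stood as high was not examined. In wildtype it stood at 3.80, 3.48, 2.65, 2.58 and 3.47 on replicates 1, 2, 3, 5 and 6, and replicate 4 held an exact 0. In the mutant it stood at 4.23, 6.04, 2.02, 3.60 and 2.77 on replicates 2 to 6. All 10 ratios were above the reference, and the groups overlapped, with mutant replicate 3 the highest and mutant replicate 4 the lowest. On mutant replicate 1 the deposited value was 16.92, which was read as signal in the cell channel only.

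The group means of pdm2 were 3.20 ± 0.55 and 3.73 ± 1.54 (SD, n = 5 each), with a dye-adjusted difference of 0.80 (SE 0.56, 95% interval -0.45 to 2.04, limma adjusted p = 0.405; exact permutation p = 0.24). In the Cy3 orientation it was 1.82 (3 wildtype and 2 mutant ratios, adjusted p = 0.304), and in the Cy5 orientation -0.23 (2 wildtype and 3 mutant ratios, adjusted p = 0.848). The test of the difference between orientations gave -2.05 (SE 0.94, limma adjusted p = 0.335, where 0.416% of rows were called). Without mutant replicate 3 the pdm2 difference was 0.21 and without wildtype replicate 6 it was 1.20. With exact zeros and 1-channel values kept, which lets in the 16.92 of mutant replicate 1, it was 3.26 (adjusted p = 0.511).

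The nub transcript lay on both sides of the reference. Wildtype replicates 1 to 6 stood at 0.61, 0.12, 1.03, -0.82, 0.62 and 0.57, and mutant replicates at 0.21, -0.95, 0.82, -0.76, 0.12 and -0.91. It was above the reference on 5 wildtype and 3 mutant arrays, and the groups overlapped. The means were 0.36 ± 0.64 and -0.25 ± 0.73 (SD, n = 6 each), with a difference of -0.60 (SE 0.36, 95% interval -1.40 to 0.20, limma adjusted p = 0.325; exact permutation p = 0.15). The difference was -0.56 in Cy3 and -0.64 in Cy5. It was -0.40 after median centring, and -0.39 without mutant replicate 2. Whether the differences of nub and pdm2 differ from each other was not tested.

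The late factor cas, which closes the Pdm window, had the smallest p of the 5 tested genes. In wildtype replicates 1 to 6 it stood at 1.63, 1.01, 0.76, 0.25, 0.58 and -0.69. In mutant replicates 1 to 6 it stood at 1.95, 1.01, 1.73, 2.14, 2.23 and 1.17. All mutant arrays were above the reference and so were 5 of 6 wildtype arrays. The groups overlapped, because wildtype replicates 1 and 2 reached the lower mutant values. The means were 0.59 ± 0.78 and 1.71 ± 0.51 (SD, n = 6 each). The difference was 1.11 (SE 0.36, 95% interval 0.33 to 1.90), or 2.16-fold, with an unadjusted p of 0.00957 and a limma adjusted p of 0.0841, which did not pass. The two-sided exact permutation test within dye orientations gave p = 0.02, unadjusted, where 400 splits allow no p below 0.005.

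The cas difference was 0.43 in the Cy3 orientation (SE 0.39, adjusted p = 0.670) and 1.80 in the Cy5 orientation (SE 0.47, adjusted p = 0.0751), where 0.0254% and 6.9% of all rows were called. In Cy5 the groups did not overlap, as in 33.0% of rows with all 6 ratios there. The difference between orientations was 1.37 (SE 0.62, limma adjusted p = 0.317) and did not pass. The lower wildtype values in Cy5 are on the same arrays on which the neuroblast marker median was 0.17 to 0.44. In wildtype Cy3 arrays, where that median was 1.53 to 2.32, cas averaged 1.14 ± 0.45 (SD, n = 3), against 1.56 ± 0.50 (SD, n = 3) in the mutant Cy3 arrays. The part of the marker levels in the cas difference was not tested. Leaving out single arrays gave differences of 0.87 to 1.31 and adjusted p from 0.0513 to 0.187. After median centring of all arrays the cas difference was 1.31 (limma adjusted p = 0.0516), which did not pass.

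**Figure D2:**
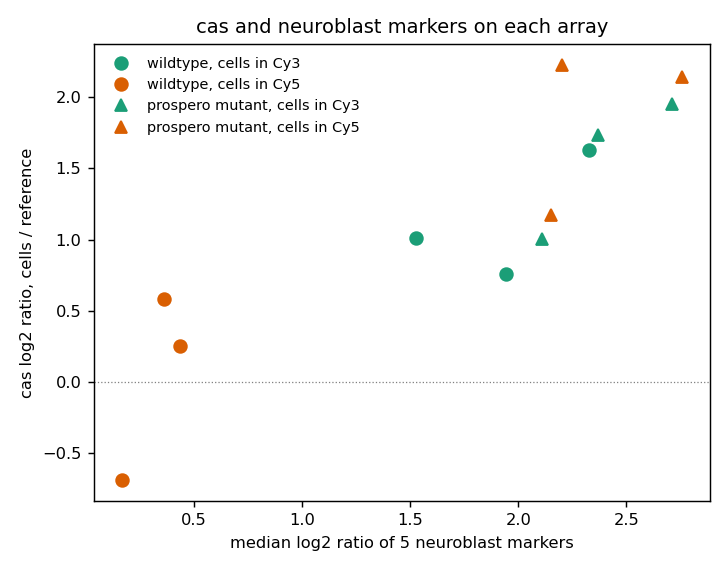
Log2 ratio of cas (y axis) against the median log2 ratio of the neuroblast markers dpn, ase, wor, mira and insc (x axis) on the 12 arrays, with groups by shape and the dye of the cells by colour. The 3 wildtype arrays with the cells in Cy5 sit at the lower left, at marker medians of 0.17 to 0.44 and cas ratios of -0.69 to 0.58. The other 9 arrays have marker medians of at least 1.53.

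The switching factor svp was measured by 2 probes that did not give the same values. On the probe listed earlier in the annotation, svp was below the reference on all 12 arrays. In wildtype replicates 1 to 6 it stood at -0.56, -2.06, -3.68, -2.46, -1.77 and -2.03, and in mutant replicates at -1.68, -2.89, -1.53, -0.51, -2.07 and -2.15. The groups overlapped over most of their range on this probe. Its means were -2.09 ± 1.01 and -1.81 ± 0.79 (SD, n = 6 each), with a difference of 0.29 (SE 0.50, limma adjusted p = 0.750).

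The other svp probe had exact zeros on wildtype replicates 1 to 3. On wildtype replicates 4 to 6 it stood at -0.01, -0.48 and -2.69. In mutant replicates 1 to 6 it stood at 1.04, -1.04, -0.59, 0.85, 0.34 and 0.53. All 3 wildtype ratios were below the 3 mutant ratios of the same orientation, as the groups were apart in 33.0% of rows with all 6 ratios in Cy5. Its difference was 1.63 (SE 0.76, limma adjusted p = 0.237 among rows with at least 2 ratios per group, a setting chosen after seeing the data). The exact permutation test gave p = 0.1, the smallest that its 20 splits allow.

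With both probes averaged, as for every gene here, svp had means of -1.84 ± 1.12 and -0.81 ± 0.72 (SD, n = 6 each) and a difference of 1.03 (SE 0.49, 95% interval -0.05 to 2.11, limma adjusted p = 0.215; exact permutation p = 0.09). After median centring the difference was 1.23 (95% interval 0.12 to 2.33, limma adjusted p = 0.150). After quantile normalization it was 1.32 (0.21 to 2.44, limma adjusted p = 0.133). Neither passed. On the wildtype Cy3 arrays the svp average consisted of the lower probe alone, while on the other 9 arrays it held both. From those 9 arrays alone the difference was 1.07 (SE 0.54, limma adjusted p = 0.273), a setting chosen after seeing the data. No wildtype array with the cells in Cy3 is among them, so this dye-adjusted difference comes from the Cy5 arrays and is no separate check. With the cells in Cy5 only, the averaged difference was likewise 1.07, and the groups did not overlap there, again against 33.0% of rows. In Cy3 it was 0.99, but this sets the lower probe alone in wildtype against both probes in the mutant. On the lower probe alone, the Cy3 means were -2.10 in wildtype and -2.03 in the mutant. Outside the nervous system svp and Kr are known from the Malpighian tubules, and the median of 4 markers of that organ and of oenocytes was -1.93 to -0.66 in wildtype and -1.55 to -0.67 in the mutant.

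**Figure D3:**
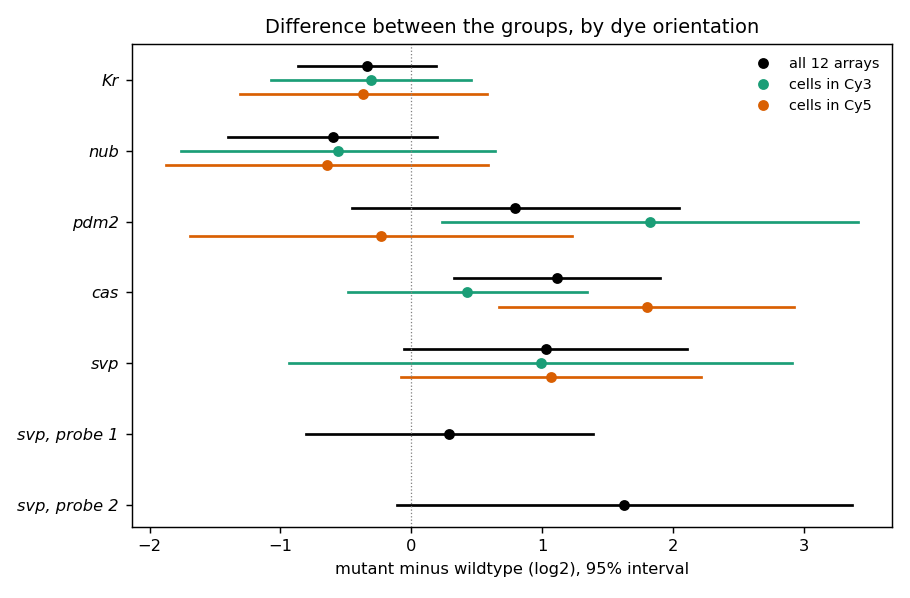
Mutant minus wildtype difference (x axis, log2, with 95% intervals) of each tested gene and of the 2 svp probes (y axis), over all arrays and, for the genes, with the cells in Cy3 or Cy5 only. Kr and nub have nearly the same difference in both orientations, pdm2 changes sign from 1.82 in Cy3 to -0.23 in Cy5, and cas goes from 0.43 to 1.80. The intervals of Kr, nub, pdm2 and svp over all arrays include 0.

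Across the 12 arrays the genes did not move as 1 group. Pearson correlations between members were -0.63 for Kr with cas, 0.62 for cas with svp and 0.24 for Kr with nub, and 0.26 for nub with pdm2 over 10 arrays. These describe arrays that share group and dye differences. For the 4 members with a ratio on all arrays, the genes of most similar pattern were sought among 5501 others with complete ratios. For cas they were pbl (r = 0.937), a gene needed for cytokinesis, Galphai (r = 0.933), whose product is a heterotrimeric G protein alpha subunit used in spindle orientation, and insc (r = 0.931), an apical adaptor of dividing neuroblasts. For Kr they were CG30195 (r = 0.939), CG8004 (r = 0.862) and CycY (r = 0.779). For nub they were CG32655 (r = 0.898), Sam-S (r = 0.888), the S-adenosylmethionine synthetase gene, and CG15213 (r = 0.871). For svp they were mod(mdg4) (r = 0.870), a chromatin insulator gene, Nf-YC (r = 0.868) and Lrr47 (r = 0.858). These genes were chosen for following the members on the same arrays, so their own group differences are not given as results.

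The factors that act after cas or time larval and later lineages were examined as a list of 13 genes, of which 8 could be tested. None passed in limma, with 3 at an unadjusted p under 0.05 against 25.9% of all rows, and the median difference was -0.79 against -0.13 over all rows. The successor of cas, grh, is named here after its values were seen. In wildtype it stood at -0.40, -1.51, -1.72, -0.75, -3.30 and -2.99, and in the mutant at 0.65, 0.02, -0.54, 0.35, 0.47 and -0.79. All wildtype arrays were below the reference, 4 of 6 mutant arrays were above it, and the groups overlapped slightly. The grh difference was 1.81 (SE 0.48, limma adjusted p = 0.0548), with 1.26 in Cy3 and 2.36 in Cy5. It passed in 6 of 24 alternative settings, among them median centring (2.01, adjusted p = 0.0334). The others included the competence factors dan (-0.89) and danr (-0.91), the larval timers chinmo (-0.93) and Imp (0.03), and kn (-1.77), a late lineage selector, with adjusted p from 0.133 to 0.943.

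Temporal factors of the optic lobe, gap genes and the repressors of hb translation were described in the same way. Of 5 tested optic lobe factors 0 passed in limma and 2 had an unadjusted p under 0.05, against 25.9% of all rows, with a median of 0.04. Those 2 were the SoxB gene D (1.13, adjusted p = 0.0963) and the homeobox gene scro (-0.99, adjusted p = 0.0929). Of 6 tested gap and early segmentation genes 0 passed and 4 had an unadjusted p under 0.05, against the same 25.9%, with a median of -0.35 and a range from -1.38 for ems to 1.43 for kni. Of the translational repressors, pum (0.42) and brat (0.04) were tested and 0 passed, with 0 at an unadjusted p under 0.05.

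Genes listed for the fates of early-born or later-born neurons included calls in 1 direction. Of 7 tested, 2 were lower in the mutant, 0 were higher and 5 did not pass, with a median of -1.05, where 3.37% of all rows were called lower and 1.58% higher. The LIM homeobox gene ap fell by 2.34 (SE 0.51, limma adjusted p = 0.0295), and zfh1, a zinc finger homeobox gene of motor neurons and mesoderm, fell by 1.06 (SE 0.26, adjusted p = 0.0395). Neither median centring (-0.87, adjusted p = 0.0823) nor quantile normalization (-0.88, adjusted p = 0.0873) kept the call of zfh1. Over the alternatives ap was called in 15 of 23 and zfh1 in 8 of 24. On the same arrays the median of the neuronal markers was 0.20 to 2.97 in wildtype and -2.28 to 0.21 in the mutant, while that of 3 mesoderm markers was -0.38 to 0.74 and -2.45 to -0.43. Their part in these calls was not tested. The early-born neuron marker eve had 1 ratio and was not tested, and early-born and later-born neurons were not compared.

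Among the relatives of the members by protein family, 1 of 5 POU domain genes was called lower and 0 higher, namely pdm3, a POU gene of neurons, which fell by 2.58 (SE 0.53, 4 ratios in each group, limma adjusted p = 0.0383). It was called in 9 of the 14 alternatives that could be fitted, and with the cells in Cy3 alone its difference was -3.31 (adjusted p = 0.150). The fits among these that left out a single array left out only arrays without a pdm3 ratio, and so repeated the same difference. Whether the pdm3 call depends on a single array was therefore not tested. The remaining POU genes, nub and pdm2 aside, were vvl (0.79) and acj6 (-3.07), which did not pass. Of 9 tested nuclear receptors, svp included, 0 passed in limma and 4 had an unadjusted p under 0.05, against 25.9% of all rows. Their median was 0.12, and they ran from -3.36 for Hr51 to 1.43 for kni.

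**Figure D4:**
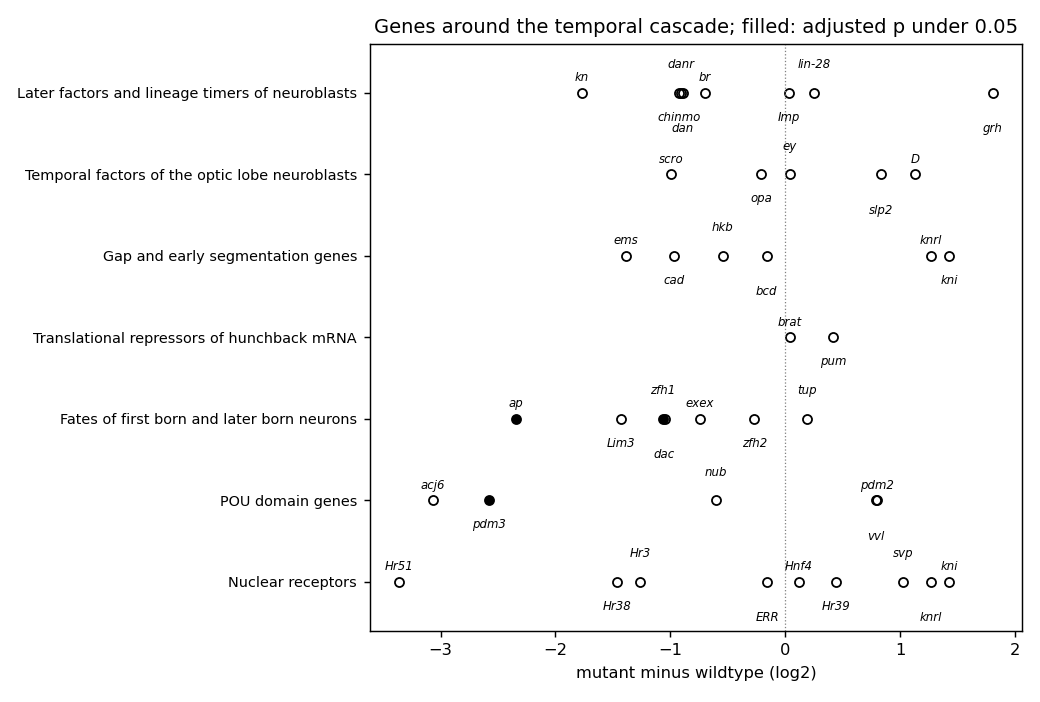
Mutant minus wildtype difference (x axis, log2) of each tested gene in 7 lists around the temporal cascade (y axis); filled points passed the threshold. The filled points, ap, zfh1 and pdm3, all lie below 0, and grh is the highest point of its list at 1.81.

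Of the genes described here, hb, cas and svp lie on chromosome arm 3R together with prospero, and nub, pdm2 and Kr on chromosome 2. The wildtype animals carried a balancer of the third chromosome that the mutants lacked. Genetic background and the loss of prospero therefore cannot be told apart for any of these genes, on either chromosome.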

How the data were processed

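The authors deposited log2 ratios of 12 arrays. How the arrays were scanned, corrected and normalized is not given in the sources used. Base 2 was read from the values: 1-channel levels lay at even steps (mean miss under 0.1 of a step) on 5 of 11 arrays examined with base 2 and on 0 with base e or 10. The direction, cells over reference, is likely and not stated. Neuroblast marker medians were above 0 on every array. Those of the amnioserosa, epidermis and trachea list, which rest on pnr, Doc1, Doc2, Doc3 and zen, were below 0 on every array. Not all lists from outside the nervous system were low. The hemocyte and fat body median was -0.26 to 1.25 in wildtype and 0.38 to 1.40 in the mutant, and the gut and yolk median reached 1.28 in wildtype. The centring is unknown; every deposited column had a median of 0, with 22.1% to 38.6% exact zeros. All pairs of arrays with exchanged dyes correlated positively, so the ratios were turned alike before deposit. No intensities were used, so dim spots could not be removed.

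Names came from the platform annotation and RefSeq gene identifiers (12011 of 12657 named probes matched), and the probes of each gene were averaged on each array. The comparison was fitted with limma 3.58.1 in R 4.3.3 (lmFit and eBayes), with group and dye as terms, and adjusted by Benjamini-Hochberg. Group by dye interaction and exact two-sided permutation tests were added; the latter are unadjusted over the 6 genes. On simulated data with this comparison's 8165 rows, 47 of 100 changes of 1.5 and 88 of 100 changes of 3 (log2) were recovered. The simulated rows were independent and had no dye effect, unlike the real arrays, so these rates need not hold for the data. Genes named beside the members came from fixed lists or were the 3 of most similar pattern per member with a ratio on all arrays. From the lists, those past the threshold were named. Others that did not pass were named too, some after their values were seen, such as grh. The members and lists were chosen with earlier results of these data known. Alternatives covered the dye term, orientation, missing values, scaling, filters, probe averaging, single arrays and the replicate number. No coordinates or sequences are given.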

Additional observations from a re-analysis of the deposited data

How the results depend on the processing

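Over the alternatives, the differences of Kr, nub, cas and svp kept their sign and 0 of the 5 tested genes passed in any of them. Adjusted p ran from 0.219 to 0.777 for Kr, 0.178 to 0.673 for nub, 0.257 to 0.848 for pdm2, 0.0513 to 0.670 for cas and 0.0728 to 0.758 for svp. The pdm2 difference reversed with the cells in Cy5 (-0.23); the cause was not tested. For hb the difference was -1.59 with zeros kept and -2.62 with at least 2 ratios per group, also in both settings of that filter chosen after seeing the data; it could not be fitted in the rest. Without single arrays the differences ran from -0.49 to -0.26 for Kr, -0.81 to -0.39 for nub, 0.21 to 1.20 for pdm2, 0.87 to 1.31 for cas and 0.68 to 1.37 for svp.

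The count of called rows, 404, was 187 without a dye term, 2 in Cy3, 595 in Cy5, 132 with zeros and 1-channel values kept and 611 after median centring. The split of 129 higher and 275 lower became 392 and 219 after median centring, and 290 and 170 after quantile normalization. Without single arrays the count ran from 117 (mutant replicate 4) to 549 (wildtype replicate 1), with 144 and 152 without wildtype replicates 5 and 6, and 267 and 161 without mutant replicates 1 and 6. With the replicate number as a block it was 106, and the block differences were -0.34 for Kr, -0.60 for nub, 1.11 for pdm2, 1.11 for cas and 1.03 for svp. With the block, 3 of the 5 genes had an unadjusted p under 0.05 in limma, against 24.2% of all rows. These were cas (95% interval 0.37 to 1.85, limma adjusted p = 0.103), svp (0.16 to 1.90, adjusted p = 0.155) and nub (-1.18 to -0.02, adjusted p = 0.195). The labels do not tie same-numbered samples. In their deviations from the means of group and dye, pairs 1 to 3 correlated at 0.20 to 0.26 and pairs 4 to 6 at 0.06 to 0.08, and 5 of 12 samples correlated best with their own number. Since 3 of 6 pairs and not every pair exceeded 0.1, the number was not used as a pairing in the main comparison. In the permutation test over all arrays, ignoring dye, the cas p was 0.0152. Signal over background is unknown for every ratio.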

Other observations

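Of 13 sets of replicate ratios of these genes and svp probes with at least 4 values, 0 held an array whose gap to its nearest neighbour exceeded Dixon's limit. The 8.83 of hb on wildtype replicate 5 could not be examined this way, since hb had 3 ratios in its group.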
